A study of Mus musculus with 34 samples.

Results

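The liver's matrix metalloproteases and their inhibitors were followed as one group of genes across 2 diets and 4 genotypes. The group holds every gene whose symbol is Mmp, Adam, Adamts, Adamtsl or Timp followed by a number, and 34 such genes were measured in both deposited count tables, of 13377 genes that both tables list. They are 8 MMPs (Mmp2, Mmp11, Mmp12, Mmp14, Mmp15, Mmp17, Mmp19 and Mmp23), 9 ADAMs (Adam9, Adam10, Adam11, Adam15, Adam17, Adam19, Adam22, Adam23 and Adam33), 10 ADAMTS genes (Adamts1, Adamts2, Adamts5, Adamts6, Adamts7, Adamts9, Adamts10, Adamts13, Adamts14 and Adamts15), 4 ADAMTS-like genes (Adamtsl1, Adamtsl2, Adamtsl4 and Adamtsl5) and 3 tissue inhibitors (Timp1, Timp2 and Timp3). Another 7 genes matched only in the table of the Bcl2 mice and 1 only in that of the S100a8 mice, and these are described last.

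Liver RNA of 34 male mice was sequenced, 1 library per mouse, in 2 experiments. The first compared WT mice with Bcl2TG littermates, which carry a Cre-inducible Bcl2 transgene switched on by Adipoq-Cre, a Cre driven in adipocytes. It had 3 WT and 3 Bcl2TG mice on chow, and 5 WT and 5 Bcl2TG mice on HFD. The second compared S100a8f/f mice, which carry floxed S100a8 alleles and no Cre, with S100a8f/fCx3cr1Cre mice, which carry the same alleles and a Cre expressed from Cx3cr1, a gene of monocytes and macrophages. It had 4 S100a8f/f and 5 S100a8f/fCx3cr1Cre mice on chow, and 5 S100a8f/f and 4 S100a8f/fCx3cr1Cre mice on HFD. Diets began at 8 weeks of age. HFD supplied 60% of its energy as fat and the chow control 10%. The Bcl2 mice were fed for 3 months. For the S100a8 mice the study's descriptions differ between 3 and 4 months.

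Matrix metalloproteases (MMPs) are zinc enzymes that cut collagens, elastin and other proteins outside the cell. ADAMs are membrane proteins, some of which shed receptors and cytokines from the cell surface, while others have lost the active site. ADAMTS enzymes are secreted and cut procollagens, proteoglycans or von Willebrand factor, and the ADAMTS-like proteins share their accessory domains without the protease. TIMPs block MMPs and some of the other active proteases by occupying the active site. In injured liver, stellate cells, fibroblasts and macrophages are known sources of several of them, and the balance of protease and inhibitor is thought to set how much scar matrix is kept.

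Libraries held 19639839 to 52395073 counts in the Bcl2 experiment and 18628257 to 25462106 in the S100a8 experiment. The 5 hepatocyte markers examined (among them Alb and Apoa1) summed to 64040 to 118300 CPM in all 34 libraries, whereas T and NK cell markers were not measured in either table. The transgene is driven in fat and liver was sequenced, so Bcl2 is an indirect check of the labels. Bcl2 ranged from 8.98 to 14.9 CPM in HFD-fed Bcl2TG livers and was at 2.72 to 2.94 CPM in 4 of 5 HFD-fed WT livers. In the library labelled HFD WT replicate 1 it was at 21.3 CPM, above the Bcl2TG range. Whether that label is right was not tested, so counts and calls that include that library are also given without it where they differ. On chow Bcl2 was at 7.75 to 11.3 CPM in WT and 4.17 to 8.44 CPM in Bcl2TG livers. These ranges overlap with the higher values in WT, so liver Bcl2 does not tell the genotypes apart there. S100a8 is not listed among the genes measured in the S100a8 mice, so its deletion could not be checked here. The level of S100a9, its partner gene, averaged 0.959 ± 0.283 CPM (SD, n = 5) in S100a8f/f livers on HFD and 1.38 ± 0.166 CPM (SD, n = 4) in S100a8f/fCx3cr1Cre livers on HFD. Levels are CPM, read counts scaled to the size of each library, and the 2 experiments were normalized separately, so that no test was made across them. A gene is called where its adjusted p in edgeR, over all genes of a comparison, is under 0.05. In bulk liver, fewer cells of a type and less RNA per cell cannot be told apart.

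The 34 genes differed widely in abundance. Per kilobase of exon, Adam9 had the highest mean level over the 8 groups (15.7 to 23.1 CPM per kb across group means), followed by Mmp19 (7.93 to 16.2), Mmp15 (9.75 to 14.8), Mmp14 (5.005 to 7.36) and Adam10 (3.97 to 7.26). Adam9, Adam10 and Adam17 encode broadly expressed sheddases, and Mmp14 and Mmp15 membrane-anchored MMPs. At the other end were Adam22 (0.0224 to 0.0822 CPM per kb), Adamtsl1 (0.0406 to 0.0877), Adamts9 (0.0284 to 0.199) and Adamts15 (0.0527 to 0.201). Timp2 was the most abundant inhibitor (2.70 to 10.8 CPM per kb), above Timp1 (0.0741 to 6.51) and Timp3 (0.271 to 0.960) in every group. No gene of the group was removed by the filter on low counts, and the lowest mean of any gene listed in the deposited tables was 7.12 and 8.67 counts per library, so genes below that could not be followed.

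The first comparison asked what HFD did in mice of the control genotypes. In WT livers 10 of the 34 genes were higher on HFD and 1 was lower (7 of the 11 without chow WT replicate 3, and 9 without HFD WT replicate 1), with 8.40% of all genes called higher and 6.98% called lower in the same comparison. Without HFD WT replicate 1 these shares of all genes were 8.00% and 5.53%. In S100a8f/f livers 20 of 34 were higher and 1 was lower, with 14.5% and 13.0% of all genes called in these directions. The median log2 fold change over the 34 genes was 0.47 in WT and 0.87 in S100a8f/f livers, while over all genes it was -0.02 and -0.01. The experiments have no library in common. Of the 10 genes called higher in WT livers 9 were also called higher in S100a8f/f livers (9 of the 20 called there), and Adam11 was called lower in both. Over all genes in both tables, 66.9% of those called higher in WT livers were called higher in S100a8f/f livers, which is 38.9% of the calls there. In WT libraries the diet groups also differed in a score of circadian clock genes, its values being 4.16 to 6.02 on chow and -1.89 to -0.88 on HFD. With that score as a covariate edgeR called no gene of the group and 0 of all 14436 genes in WT livers, 606 of them with an unadjusted p under 0.05, so that diet and clock phase cannot be told apart there. The median log2 fold change of the 34 genes was then 0.04, that of Mmp12 2.96 and that of Adamts2 1.32. In S100a8f/f livers the scores overlapped (-1.72 to 2.05 and -2.07 to -0.02), and 19 of the 21 genes were still called with the covariate.

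**Figure D1:**
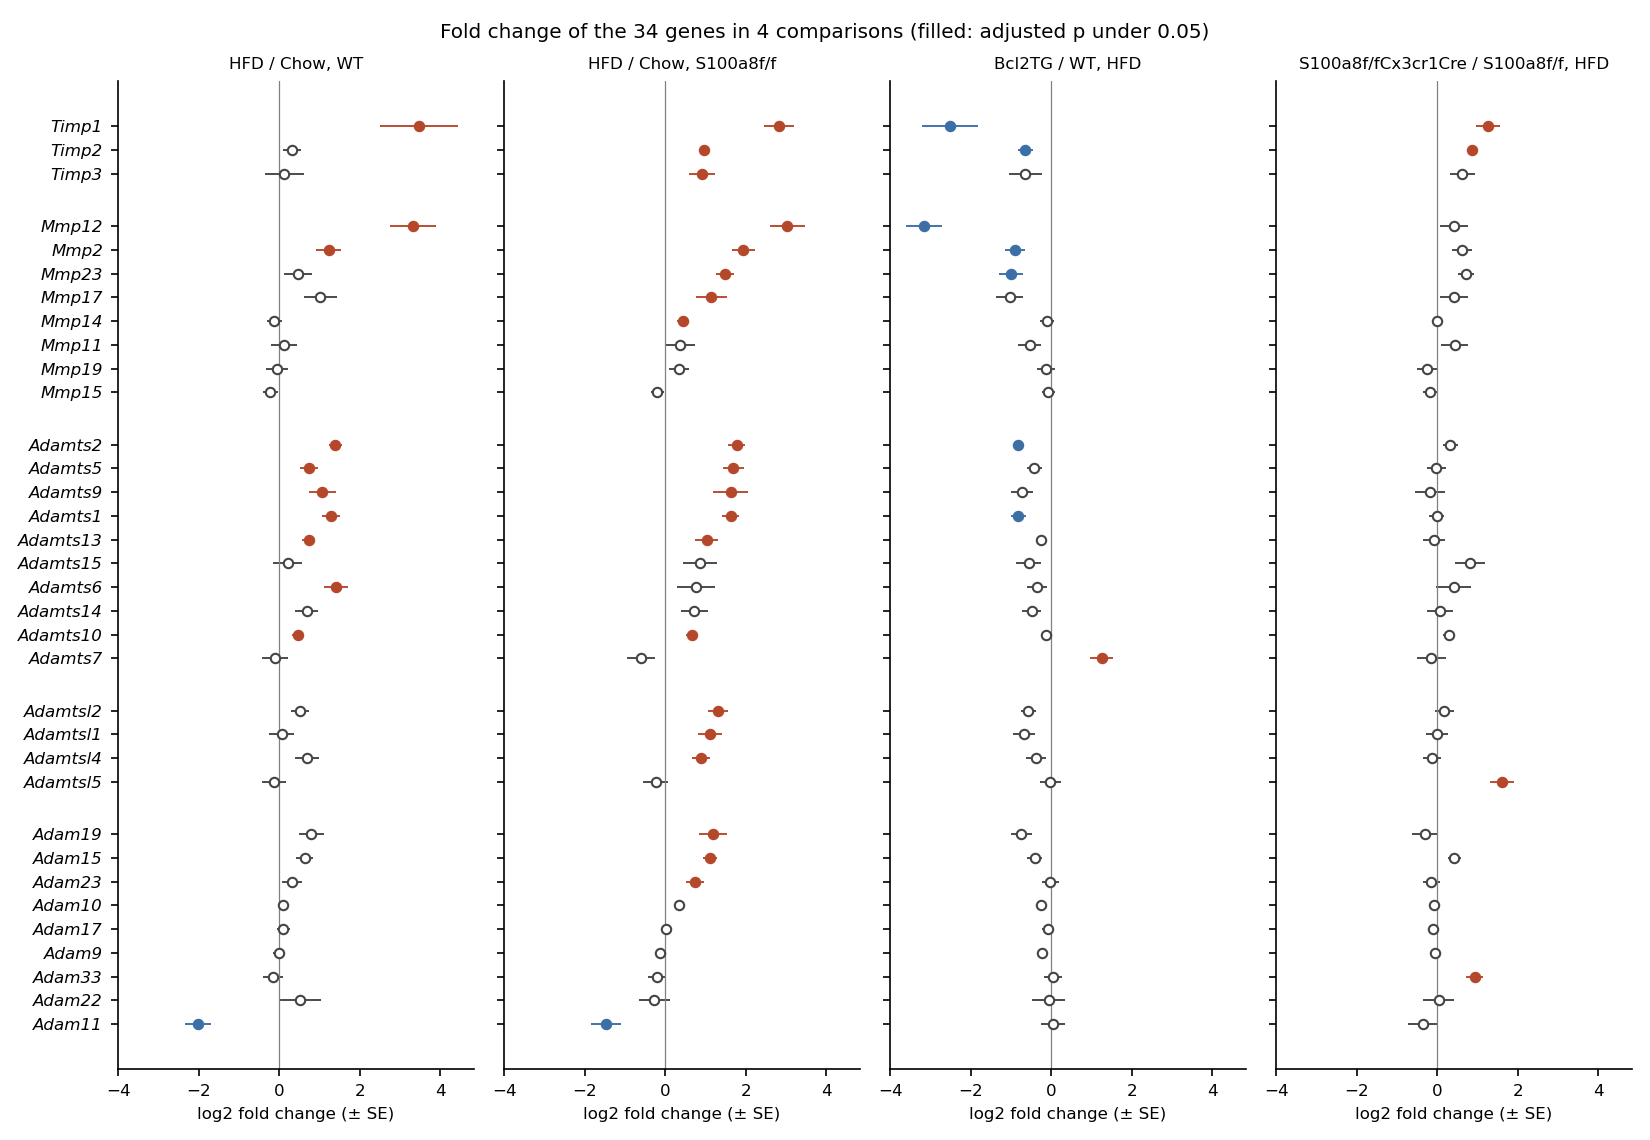
Log2 fold change (x axis, ± SE) of each of the 34 genes (rows, grouped by family) in 4 comparisons, with filled points for an adjusted p under 0.05 (red higher, blue lower). On HFD 10 genes were higher in WT and 20 in S100a8f/f livers, 7 were lower in Bcl2TG than in WT livers, and 4 were higher in S100a8f/fCx3cr1Cre than in S100a8f/f livers.

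The promoters of the leading genes are shown because these genes had the strongest calls of the group. They are printed as RefSeq gives them for GRCm38.p6, 250 bases before to 50 after the start, for the 3 genes with the smallest adjusted p that have an entry there and, chosen after its values were seen, for Mmp12, the gene with the largest change between genotypes. They were searched on both strands for the AP-1 motif TGAGTCA and the PEA3 motif AGGAAG, a pair of elements known from MMP promoters. Of all 32851 promoters in the table, 5.2% held the first and 35.4% the second. Of 26 promoters listed for 22 of the 34 genes, 2 (7.69%) held the first and 8 (30.8%) the second. Capitals mark the matches. Timp1 (chrX:20869916-20870215, plus strand) had 3 PEA3 matches, starting 175 and 99 bases before the start and at base 41 after it. Mmp12 has 2 starts in the table, the first (chr9:7344147-7344446, plus strand) with 1 PEA3 match on the opposite strand and the second (chr9:7347124-7347423, plus strand) with 1 AP-1 match from 44 to 38 bases before the start. Timp2 (chr11:118355362-118355661, minus strand) and Adamts2 (chr11:50601835-50602134, plus strand) had none, and their GC content was 68.7% and 77.3%, against 38.7% and 40.7% at the 2 starts of Mmp12. A match is a string of letters and not evidence of binding.
Timp1: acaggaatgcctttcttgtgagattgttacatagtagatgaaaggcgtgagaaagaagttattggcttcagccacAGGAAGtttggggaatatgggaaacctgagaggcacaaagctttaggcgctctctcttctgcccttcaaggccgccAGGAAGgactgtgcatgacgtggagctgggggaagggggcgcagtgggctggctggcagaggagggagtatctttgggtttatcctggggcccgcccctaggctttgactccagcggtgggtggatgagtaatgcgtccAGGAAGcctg
Mmp12 start 1: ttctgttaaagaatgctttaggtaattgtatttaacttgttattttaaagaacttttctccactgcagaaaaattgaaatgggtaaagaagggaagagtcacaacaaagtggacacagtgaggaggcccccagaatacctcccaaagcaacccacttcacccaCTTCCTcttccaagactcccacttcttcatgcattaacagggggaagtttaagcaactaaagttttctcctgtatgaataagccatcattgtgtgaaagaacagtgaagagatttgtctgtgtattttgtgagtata
Mmp12 start 2: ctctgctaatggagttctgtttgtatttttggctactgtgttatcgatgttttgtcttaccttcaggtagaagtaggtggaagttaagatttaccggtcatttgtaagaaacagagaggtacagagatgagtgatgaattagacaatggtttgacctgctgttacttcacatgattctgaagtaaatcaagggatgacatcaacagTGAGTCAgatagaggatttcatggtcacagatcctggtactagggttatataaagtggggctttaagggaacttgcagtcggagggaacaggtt
Timp2: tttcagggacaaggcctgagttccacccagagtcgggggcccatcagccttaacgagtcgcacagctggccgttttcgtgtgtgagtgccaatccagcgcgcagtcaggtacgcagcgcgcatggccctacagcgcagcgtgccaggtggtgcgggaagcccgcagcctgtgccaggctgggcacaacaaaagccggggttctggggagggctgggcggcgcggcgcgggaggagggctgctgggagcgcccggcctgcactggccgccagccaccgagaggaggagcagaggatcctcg
Adamts2: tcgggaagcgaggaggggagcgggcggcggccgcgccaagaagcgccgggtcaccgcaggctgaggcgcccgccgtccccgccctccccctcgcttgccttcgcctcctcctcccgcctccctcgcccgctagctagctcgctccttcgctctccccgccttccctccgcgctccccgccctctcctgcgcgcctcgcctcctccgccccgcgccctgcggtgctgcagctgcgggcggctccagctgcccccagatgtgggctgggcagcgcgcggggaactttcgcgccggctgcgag

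Of the inhibitors, Timp1 changed most with diet. Timp1 (ENSMUSG00000001131, chromosome X of GRCm38 from 20870166 to 20874735, plus strand) encodes a secreted inhibitor that is a common marker of liver fibrosis. In chow-fed WT livers it was at 0, 0 and 0.329 CPM, the last of these resting on 8 reads, and in HFD-fed WT livers at 0.466, 1.04, 1.31, 1.49 and 1.94 CPM (log2 fold change 3.47, SE 0.97, adjusted p = 0.0232). In S100a8f/f livers it was at 0.147, 0.196, 0.333 and 0.657 CPM on chow and 1.80, 1.88, 2.22, 2.50 and 3.64 CPM on HFD (log2 fold change 2.82, SE 0.38, adjusted p = 2.94e-05). The diet groups did not overlap in either genotype. In WT livers the call was lost without replicate 1 or replicate 3 of the chow group (adjusted p = 0.0793 and 0.0712), the libraries at 0, and with the replicate number as a block (0.0657). Without replicate 2 the chow group is at 0 and its fitted log2 fold change, 8.27, depends on the prior count. The S100a8f/f value was 3.41 without chow replicate 5.

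Timp2 (ENSMUSG00000017466, chromosome 11 of GRCm38 from 118301069 to 118355740, minus strand) encodes an inhibitor that also takes part in the activation of pro-MMP2 by MMP14. It was at 9.81, 11.7, 11.97 and 13.4 CPM in chow-fed and 20.4, 21.6, 23.5, 23.5 and 26.4 CPM in HFD-fed S100a8f/f livers (log2 fold change 0.97, SE 0.11, adjusted p = 3.86e-06), with no overlap. In WT livers it was at 12.99, 18.3 and 20.8 CPM on chow and 19.9, 20.1, 20.9, 22.6 and 25.2 CPM on HFD, and these groups overlapped (log2 fold change 0.33, SE 0.22, adjusted p = 0.336). Timp3 encodes an inhibitor that stays bound to the matrix and also blocks ADAM17. Timp3 was at 1.16, 1.76, 2.67 and 4.59 CPM on chow and 3.09, 3.93, 5.12, 5.79 and 6.14 CPM on HFD in S100a8f/f livers, and its call there (log2 fold change 0.91, SE 0.33, adjusted p = 0.0468) was the weakest of the 3. It was lost without any of 11 libraries (adjusted p 0.0529 to 0.134). These 11 are every library of the experiment except chow S100a8f/f replicate 4, chow S100a8f/fCx3cr1Cre replicates 1, 2, 4 and 5, HFD S100a8f/f replicate 2 and HFD S100a8f/fCx3cr1Cre replicate 5. In WT livers Timp3 was at 2.55, 6.82 and 9.83 CPM on chow and 5.32, 5.76, 6.86, 8.27 and 8.65 CPM on HFD (log2 fold change 0.13, SE 0.48, adjusted p = 0.887). Exons of Timp3 share 21.3% of their length with Syn3, a gene on the other strand, and as the counting is not stated to use strand, reads of the pair cannot be told apart.

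**Figure D2:**
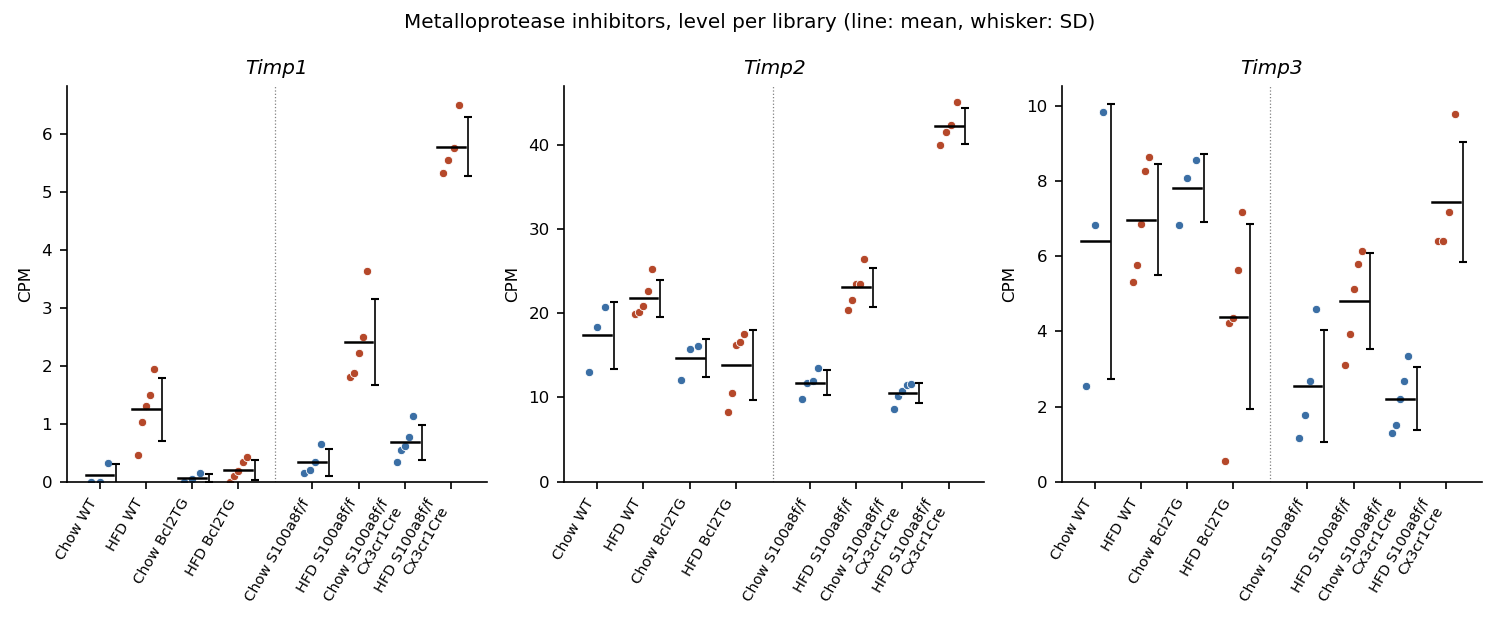
Level of Timp1, Timp2 and Timp3 (CPM) in each library of the 8 groups, blue for chow and red for HFD, with the group mean as a line and the SD as a whisker; the dotted line separates the 2 experiments, which were normalized separately. HFD-fed S100a8f/fCx3cr1Cre livers held 5.33 to 6.50 CPM of Timp1 and 40 to 45.1 CPM of Timp2, above every other group of their experiment.

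Among the MMPs the widest change with diet was that of Mmp12 (ENSMUSG00000049723, chromosome 9 of GRCm38 from 7344381 to 7369499, plus strand), which encodes the macrophage elastase. It was at 0.123, 0.343 and 0.726 CPM in chow-fed WT livers, and 1.46, 2.73, 2.79, 5.75 and 7.02 CPM in those fed HFD (log2 fold change 3.33, SE 0.57, adjusted p = 0.00103). The S100a8f/f values of Mmp12 were 0.392, 0.489, 0.665 and 1.31 CPM on chow and 2.45, 4.91, 4.93, 6.86 and 10.5 CPM on HFD (log2 fold change 3.04, SE 0.44, adjusted p = 5.9e-05). In both experiments every HFD-fed liver was above every chow-fed liver, and the call remained without any 1 library, though the WT log2 fold change was 4.02 without chow replicate 3. Of 7 markers of monocytes and lipid-associated macrophages (6 measured in the S100a8 mice) 4 were called higher in each control genotype, and the sums of all measured markers overlapped. The sums were 49.4 to 99.0 CPM on chow and 57.5 to 183 CPM on HFD in WT livers, and 56.6 to 98.2 and 79.4 to 219 CPM in S100a8f/f livers. Their part in the Mmp12 values was not tested.

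Mmp2 (ENSMUSG00000031740, chromosome 8 of GRCm38 from 92827291 to 92853420, plus strand) encodes gelatinase A, a product of stellate cells and fibroblasts. Its levels were 2.16, 2.23 and 3.70 CPM on chow and 5.11, 5.96, 6.32, 6.61 and 7.77 CPM on HFD in WT livers (log2 fold change 1.23, SE 0.31, adjusted p = 0.0133). They were 1.55, 1.64, 1.66 and 1.91 CPM and 4.76, 5.68, 6.90, 6.98 and 8.36 CPM in S100a8f/f livers (log2 fold change 1.95, SE 0.28, adjusted p = 6.82e-05). No chow-fed liver reached the HFD-fed livers of its genotype. The WT call was lost without replicate 1 or replicate 3 of the chow group (adjusted p = 0.0577 and 0.0526). Of 8 stellate cell and fibroblast markers, which include Col1a1 and Col3a1, 3 were called higher in WT and 8 in S100a8f/f livers. They summed to 208 to 317 CPM on chow and 416 to 543 CPM on HFD in WT livers, and to 83.7 to 147 and 318 to 538 CPM in S100a8f/f livers. Their part in it was not tested.

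Mmp23 encodes an MMP held in membranes. Mmp23 was at 0.832, 1.03, 1.18 and 1.36 CPM in chow-fed and 2.45, 3.14, 3.21, 3.31 and 3.38 CPM in HFD-fed S100a8f/f livers (log2 fold change 1.49, SE 0.22, adjusted p = 7.88e-05). In WT livers it was at 1.34, 1.73 and 2.37 CPM on chow and 1.27, 2.43, 2.77, 3.03 and 3.07 CPM on HFD, overlapping (log2 fold change 0.47, SE 0.34, adjusted p = 0.372). Of the other MMPs, Mmp17 and Mmp14 were called higher on HFD in S100a8f/f livers (log2 fold change 1.15 and 0.43, adjusted p = 0.0329 and 0.0158). The Mmp17 call was lost without chow replicate 2 or 4 or HFD replicate 1, 3 or 5 of that genotype (adjusted p 0.0542 to 0.0931). Mmp11, Mmp15 and Mmp19 were not called in either control genotype, with log2 fold changes between -0.22 and 0.37. Mmp19 shares 22.3% of its exon length with Tmem198b on the other strand.

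**Figure D3:**
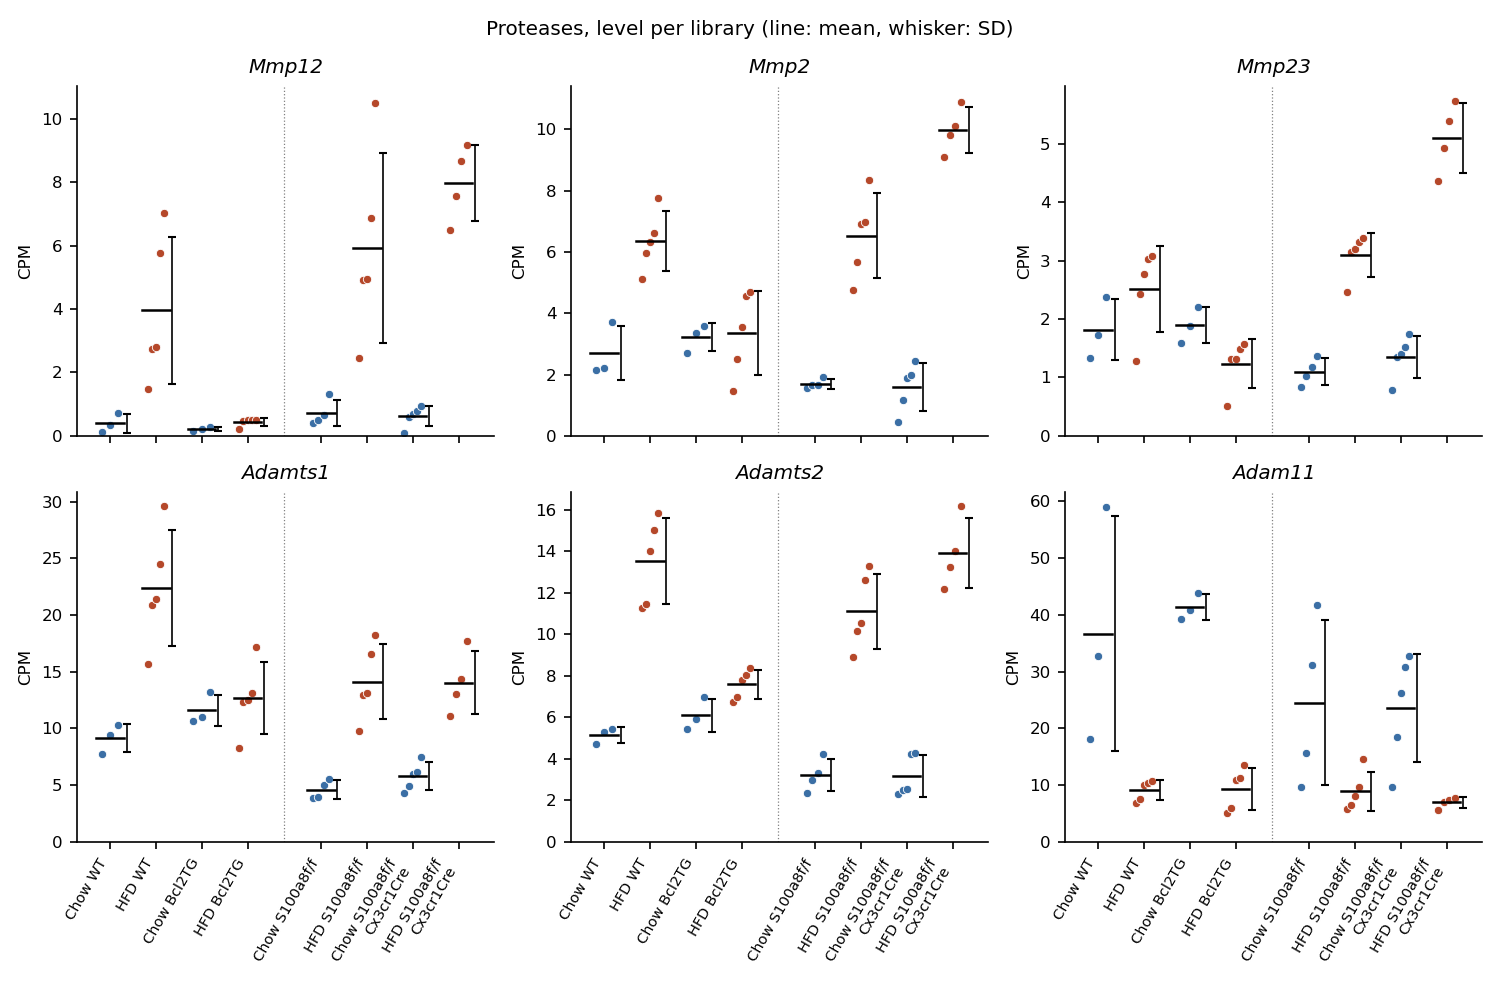
Level (CPM) of Mmp12, Mmp2, Mmp23, Adamts1, Adamts2 and Adam11 in each library of the 8 groups, with group means (lines) and SDs (whiskers); the experiments on either side of the dotted line were normalized separately. Mmp12 reached 1.46 to 7.02 CPM in HFD-fed WT livers but 0.213 to 0.514 CPM in HFD-fed Bcl2TG livers, whereas Adam11 was lower on HFD in every genotype.

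Of the ADAMTS family 7 of 10 genes were higher on HFD in WT and 6 of 10 in S100a8f/f livers, which is 7 of the 10 and 6 of the 20 genes of the group called higher there. Adamts2 (ENSMUSG00000036545, chromosome 11 of GRCm38 from 50602084 to 50807573, plus strand) encodes an enzyme that trims the amino-terminal propeptide from fibrillar procollagens. It was at 4.69, 5.28 and 5.42 CPM on chow and 11.3, 11.4, 14.04, 15.01 and 15.9 CPM on HFD in WT livers (log2 fold change 1.40, SE 0.16, adjusted p = 4.73e-05). Adamts2 in S100a8f/f livers was at 2.33, 2.98, 3.33 and 4.22 CPM on chow and 8.91, 10.2, 10.6, 12.6 and 13.3 CPM on HFD (log2 fold change 1.78, SE 0.21, adjusted p = 7.22e-06). The groups stood apart in both experiments and the calls remained without any 1 library. Adamts14, the other procollagen N-propeptidase measured, was not called (log2 fold change 0.69 in WT and 0.72 in S100a8f/f livers).

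Adamts1, Adamts5, Adamts9 and Adamts15 encode enzymes that cut proteoglycans such as aggrecan and versican. Adamts1 was at 7.77, 9.43 and 10.3 CPM on chow and 15.7, 20.9, 21.4, 24.5 and 29.6 CPM on HFD in WT livers (log2 fold change 1.29, SE 0.22, adjusted p = 0.000984). It was at 3.83, 3.92, 4.97 and 5.57 CPM and 9.79, 12.96, 13.1, 16.6 and 18.2 CPM in S100a8f/f livers (log2 fold change 1.62, SE 0.20, adjusted p = 1.31e-05). Adamts1 was therefore separated by diet in both experiments. Adamts5 was at 2.60, 3.53 and 4.48 CPM on chow and 5.56, 5.67, 5.98, 6.05 and 6.31 CPM on HFD in WT livers (log2 fold change 0.74, SE 0.22, adjusted p = 0.0305), and the S100a8f/f values were 0.943, 1.41, 1.42 and 1.86 CPM and 3.19, 3.43, 4.85, 5.08 and 6.41 CPM (log2 fold change 1.70, SE 0.26, adjusted p = 9.94e-05). In WT livers the Adamts5 call was lost without chow replicate 1 or 3 or HFD replicate 3 (adjusted p = 0.127, 0.0707 and 0.0522), and with the replicate block (0.0599). Adamts9 was also higher in both (log2 fold change 1.07 and 1.63, adjusted p = 0.0377 and 0.0085), but in WT livers the call was lost without any 1 of the 3 chow libraries or HFD replicates 1, 2, 4 or 5 (adjusted p 0.0523 to 0.128). The diets overlapped for Adamts9 in S100a8f/f livers. Adamts15 was not called in either control genotype (0.21 and 0.86).

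Adamts10, a relative thought to act on fibrillin microfibrils, differed by less. It was at 8.72, 11.4 and 11.4 CPM on chow and 12.97, 14.1, 14.7, 15.2 and 15.5 CPM on HFD in WT livers (log2 fold change 0.46, SE 0.14, adjusted p = 0.0366), a call lost without chow replicate 2 or HFD replicate 1, 2, 4 or 5 (adjusted p 0.0515 to 0.155) and with the replicate block (0.056). Adamts10 in S100a8f/f livers was at 5.54, 5.98, 7.13 and 8.70 CPM and 9.51, 10.3, 10.99, 11.6 and 11.9 CPM (log2 fold change 0.67, SE 0.14, adjusted p = 0.00231). Adamts13 encodes the von Willebrand factor protease, which the liver supplies to plasma, and its log2 fold change was 0.73 in WT and 1.03 in S100a8f/f livers (adjusted p = 0.0082 and 0.0112), the diets overlapping in S100a8f/f livers. Adamts6 was called in WT livers alone (1.41, adjusted p = 0.00604, against 0.78 and 0.233 in S100a8f/f livers), and the difference between the experiments was not tested. Adamts7 was not called in either (-0.11 and -0.59).

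ADAMTS-like proteins bind to the matrix and have no protease. Of these 4 genes 3 were higher on HFD in S100a8f/f livers, and in WT livers 0 were called by edgeR, 0 by DESeq2 and 1 (Adamtsl2) by limma-voom, although 2 of the 4 had an unadjusted p under 0.05 there. Adamtsl2 was at 3.38, 3.66, 4.90 and 6.79 CPM on chow and 9.53, 10.99, 11.8, 12.4 and 13.6 CPM on HFD in S100a8f/f livers (log2 fold change 1.31, SE 0.25, adjusted p = 0.000763), and at 8.19, 11.3 and 13.2 CPM and 11.02, 13.9, 15.1, 18.7 and 19.1 CPM in WT livers (log2 fold change 0.52, SE 0.22, adjusted p = 0.12). Adamtsl4 was at 1.66, 2.44, 2.79 and 3.71 CPM on chow and 4.13, 4.53, 5.09, 5.38 and 5.47 CPM on HFD in S100a8f/f livers (log2 fold change 0.89, SE 0.23, adjusted p = 0.00798). Neither overlapped between diets in S100a8f/f livers, while Adamtsl2 did in WT livers. Adamtsl4 was at 1.36, 2.64 and 2.76 CPM on chow and 2.79, 2.995, 3.38, 4.08 and 5.12 CPM on HFD in WT livers (log2 fold change 0.70, SE 0.29, adjusted p = 0.119). Adamtsl1 was called higher in S100a8f/f livers as well (1.11, adjusted p = 0.01), and Adamtsl5 was not (-0.24).

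The broadly expressed sheddases Adam10, Adam17 and Adam9 were not called by edgeR in any of the 10 comparisons. Adam10 was next to the threshold with HFD in S100a8f/f livers (adjusted p = 0.0506) and DESeq2 called it there, while limma-voom called Adam9 with HFD in Bcl2TG livers. Their log2 fold changes with HFD were 0.10, 0.10 and -0.01 in WT livers, and 0.34, 0.03 and -0.12 in S100a8f/f livers. Adam22, which encodes a neuronal ADAM with no active protease, was not called either. Adam15 was at 1.92, 2.25, 2.66 and 3.29 CPM on chow and 4.87, 5.08, 5.30, 5.31 and 6.95 CPM on HFD in S100a8f/f livers (log2 fold change 1.12, SE 0.18, adjusted p = 0.000144), with no overlap, and at 2.27, 2.47 and 3.21 CPM and 2.99, 3.44, 4.26, 4.43 and 5.49 CPM in WT livers (log2 fold change 0.63, SE 0.22, adjusted p = 0.0622). Adam15 shares 20.6% of its exon length with an antisense transcript that was not measured. Adam19 and Adam23 were called higher in S100a8f/f livers (1.19 and 0.74, adjusted p = 0.0159 and 0.0162). The call of Adam19 was lost without chow replicate 2 (adjusted p = 0.0524) and that of Adam23 without chow replicate 2 or HFD replicate 4 (adjusted p = 0.0513 and 0.0553).

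Adam11 went the other way. The gene (ENSMUSG00000020926, chromosome 11 of GRCm38 from 102761439 to 102780262, plus strand) encodes an ADAM without protease activity that is best known from neurons. In WT livers it was at 18.1, 32.8 and 59.0 CPM on chow and 6.86, 7.59, 9.93, 10.4 and 10.7 CPM on HFD (log2 fold change -2.01, SE 0.32, adjusted p = 0.000658), and in Bcl2TG livers at 39.3, 40.9 and 43.8 CPM and 4.998, 5.93, 10.9, 11.2 and 13.5 CPM (log2 fold change -2.14, SE 0.32, adjusted p = 0.00195). In S100a8f/f livers it was at 9.66, 15.6, 31.1 and 41.7 CPM on chow and 5.76, 6.46, 7.97, 9.55 and 14.5 CPM on HFD (log2 fold change -1.47, SE 0.37, adjusted p = 0.00644), and in S100a8f/fCx3cr1Cre livers at 9.68, 18.5, 26.3, 30.8 and 32.7 CPM and 5.52, 6.97, 7.43 and 7.77 CPM (log2 fold change -1.77, SE 0.39, adjusted p = 0.00211). It was the only gene of the 34 called in the diet comparison of all 4 genotypes. The chow-fed groups spread widely, and of the 4 genotypes S100a8f/f was the one in which the diets overlapped. None of the 4 calls was lost without any 1 library, and all 4 were lost with the clock score as a covariate (adjusted p 0.0774 to 0.993, with log2 fold changes of -2.39 in WT, -2.46 in Bcl2TG, -0.76 in S100a8f/f and -0.39 in S100a8f/fCx3cr1Cre livers).

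The next comparison asked how livers of HFD-fed Bcl2TG mice, whose adipocytes overexpress BCL2, differed from those of HFD-fed WT mice. Of the 34 genes 7 were lower (Mmp12, Timp1, Mmp23, Mmp2, Adamts2, Adamts1 and Timp2) and 1 was higher (Adamts7), with 4.29% of all genes called lower and 2.42% called higher. The log2 fold change was below 0 in 31 of the 34, with a median of -0.42 against 0.01 over all genes. By family, 3 of 8 MMPs, 3 of 10 ADAMTS genes, 2 of 3 TIMPs, 0 of 9 ADAMs and 0 of 4 ADAMTS-like genes were called by edgeR. DESeq2 called 10 genes in all, 1 higher and 9 lower. Without the library labelled HFD WT replicate 1 the count was 4 of 34, 1 higher and 3 lower, with 2.06% of all genes called higher and 4.07% lower. Without chow Bcl2TG replicate 3, HFD WT replicate 4 or 5, or HFD Bcl2TG replicate 5 or 6 the count was also 4. Without chow Bcl2TG replicate 1 or 2 or HFD WT replicate 2 it was 5. Where 4 were called, they were Mmp12, Adamts2, Adamts1 and Adamts7. The clock score was at -5.01 to -1.67 in HFD-fed Bcl2TG and -1.89 to -0.88 in HFD-fed WT libraries, and with it as a covariate 2 genes (Mmp12 and Adamts2) were called, while the other 6 had log2 fold changes from -1.88 (Timp1) to 1.23 (Adamts7). With the mean of adipocyte, mesothelial and smooth muscle markers as a covariate the same 2 genes were called, and Timp1, Mmp2, Adamts1 and Timp2 were at -2.47, -0.87, -0.82 and -0.54.

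Mmp12 separated the HFD-fed genotypes most. It was at 0.213, 0.452, 0.506, 0.509 and 0.514 CPM in Bcl2TG livers, all below the lowest WT liver at 1.46 CPM (log2 fold change -3.17, SE 0.45, adjusted p = 0.00124). With 22866258 to 39909892 counts per library, the levels in these Bcl2TG livers rest on few reads. The mean of these livers was 0.439 ± 0.129 CPM (SD, n = 5), and that of the chow-fed WT and Bcl2TG livers 0.397 ± 0.305 and 0.218 ± 0.0674 CPM (SD, n = 3 each). With diet it did not pass the test in Bcl2TG livers (log2 fold change 0.96, SE 0.64, adjusted p = 0.525). Of the 7 markers of monocytes and lipid-associated macrophages 4 were lower in Bcl2TG livers (Ccr2, Gpnmb, Itgax and Trem2). Of 6 Kupffer cell markers 0 were called (median log2 fold change -0.12). The 7 markers named first, called or not, summed to 37.7 to 47.0 CPM in HFD-fed Bcl2TG and 57.5 to 183 CPM in HFD-fed WT livers, without overlap. Their part in the Mmp12 values was not tested.

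Timp1 was at 0, 0.0926, 0.184, 0.334 and 0.425 CPM in HFD-fed Bcl2TG livers, below all 5 WT livers (log2 fold change -2.52, SE 0.69, adjusted p = 0.0382). These levels rest on 0 to 16 reads per library, and the call was lost without any 1 of 8 libraries (chow Bcl2TG replicate 3, HFD WT replicates 1, 3, 4 and 5, and HFD Bcl2TG replicates 3, 5 and 6, adjusted p 0.0501 to 0.0945). Timp2 was at 8.28, 10.5, 16.2, 16.6 and 17.6 CPM in HFD-fed Bcl2TG livers, again below all WT livers (log2 fold change -0.65, SE 0.19, adjusted p = 0.0492), with its lowest values in replicates 5 and 6. Timp2 lost its call without chow WT replicate 3, any chow Bcl2TG library, any HFD WT library or HFD Bcl2TG replicate 5 or 6 (adjusted p 0.0566 to 0.123), and also with limma-voom and RLE factors (adjusted p = 0.0744 and 0.0521). Timp3 was at 0.552, 4.23, 4.35, 5.63 and 7.19 CPM and was not called (log2 fold change -0.65, SE 0.41, adjusted p = 0.384).

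Mmp2 was at 1.47, 2.50, 3.55, 4.57 and 4.68 CPM in HFD-fed Bcl2TG livers, below the lowest WT liver at 5.11 CPM (log2 fold change -0.90, SE 0.26, adjusted p = 0.0432). Mmp23 was at 0.509, 1.31, 1.31, 1.49 and 1.56 CPM (log2 fold change -0.998, SE 0.29, adjusted p = 0.0484), and here 1 WT liver, at 1.27 CPM, lay within the Bcl2TG range. Both calls were close to the threshold. That of Mmp2 was lost without any chow Bcl2TG library, HFD WT replicate 1, 2, 4 or 5, or HFD Bcl2TG replicate 2, 5 or 6 (adjusted p 0.055 to 0.11). That of Mmp23 was lost without any library except chow WT replicate 2 and HFD WT replicate 3 (adjusted p 0.0507 to 0.119). Of the 8 stellate cell and fibroblast markers 3 were lower in Bcl2TG livers (Col1a1, Col3a1 and Pdgfrb). All 8 summed to 214 to 310 CPM in HFD-fed Bcl2TG and 416 to 543 CPM in HFD-fed WT livers. Their part in the Mmp2 and Mmp23 values was not tested. Mmp17 had a log2 fold change of -1.03 without passing the test (adjusted p = 0.0814), while Mmp14, Mmp15 and Mmp19 were between -0.13 and -0.07.

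Adamts2 was at 6.71, 6.999, 7.78, 8.06 and 8.38 CPM in HFD-fed Bcl2TG livers, all below the lowest HFD-fed WT liver at 11.3 CPM (log2 fold change -0.83, SE 0.13, adjusted p = 0.00177). Adamts1 was at 8.23, 12.3, 12.5, 13.2 and 17.1 CPM (log2 fold change -0.82, SE 0.18, adjusted p = 0.0127), and only 1 Bcl2TG liver, at 17.1 CPM, reached the WT range. Adamts7, which encodes a protease of cartilage and vessel matrix, was the only gene of the group that was higher. It was at 8.37, 9.43, 10.2, 10.96 and 16.9 CPM in HFD-fed WT and 16.0, 22.1, 22.7, 27.5 and 44.5 CPM in HFD-fed Bcl2TG livers (log2 fold change 1.25, SE 0.28, adjusted p = 0.0127), overlapping in 1 library of each genotype, and it is described here because of this difference. The proteoglycanases Adamts5 and Adamts9 had log2 fold changes of -0.42 and -0.72 that did not pass the test (adjusted p = 0.19 and 0.127). Adam11 gave no call here (log2 fold change 0.04, SE 0.29, adjusted p = 0.947). In these livers Adam15 was at 2.43 to 3.73 CPM, Adamts10 at 10.4 to 15.1 CPM, Adamtsl2 at 7.45 to 13.2 CPM and Adamtsl4 at 1.85 to 4.46 CPM, and none of them was called (adjusted p 0.0754 to 0.54).

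On chow, no gene of the group was called between Bcl2TG and WT livers by edgeR or DESeq2 (edgeR called 0.152% of all genes, 0.104% higher and 0.0485% lower), and 1 had an unadjusted p under 0.05. The median log2 fold change was 0.08, and with 3 livers per genotype the estimates were wide, for Timp1 a log2 fold change of -0.64 with an SE of 1.45. The chow-fed Bcl2TG livers held 0, 0.0525 and 0.145 CPM of Timp1, 12.03, 15.8 and 16.1 CPM of Timp2, 6.83, 8.07 and 8.56 CPM of Timp3 and 0.156, 0.210 and 0.290 CPM of Mmp12. Mmp2 was at 2.71 to 3.58 CPM there, Mmp23 at 1.60 to 2.21 CPM, Adamts1 at 10.6 to 13.2 CPM and Adamts2 at 5.41 to 6.98 CPM. Of these 8 genes Adamts1 alone had values that did not overlap those of chow-fed WT livers, against 13.4% of all genes (log2 fold change 0.34, SE 0.24, adjusted p = 0.741). Within Bcl2TG livers, 1 of the 34 genes, Adam11, was lower on HFD than on chow and none was higher, with 1.26% and 1.32% of all genes called in these directions by edgeR (2.58% in either). DESeq2 also called 1 gene, 7 genes had an unadjusted p under 0.05, and the median log2 fold change was 0.02.

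The test of whether the diet effect itself differed between WT and Bcl2TG livers called 1 gene of the 34, Adamts2 (interaction -1.08, SE 0.21, adjusted p = 0.0326), with 0.485% of all genes called (0.256% below 0 and 0.229% above). Adamts2 had a log2 fold change with HFD of 1.40 in WT and 0.32 in Bcl2TG livers, rising in the first and not passing the test in the second (adjusted p = 0.319). The interaction was lost without any chow library, HFD WT replicate 4 or 5 or HFD Bcl2TG replicate 1 (adjusted p 0.0509 to 0.13), and without HFD WT replicate 2 Adamts1 was called too. The 4 lowest estimates were those of Mmp12, Timp1, Mmp17 and Adamts1, at -2.37, -1.88, -1.47 and -1.16, with adjusted p of 0.236, 0.616, 0.257 and 0.094. It was below 0 for 29 of the 34 genes. The diet and genotype comparisons share the HFD-fed WT libraries, so their estimates are not independent of each other.

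**Figure D4:**
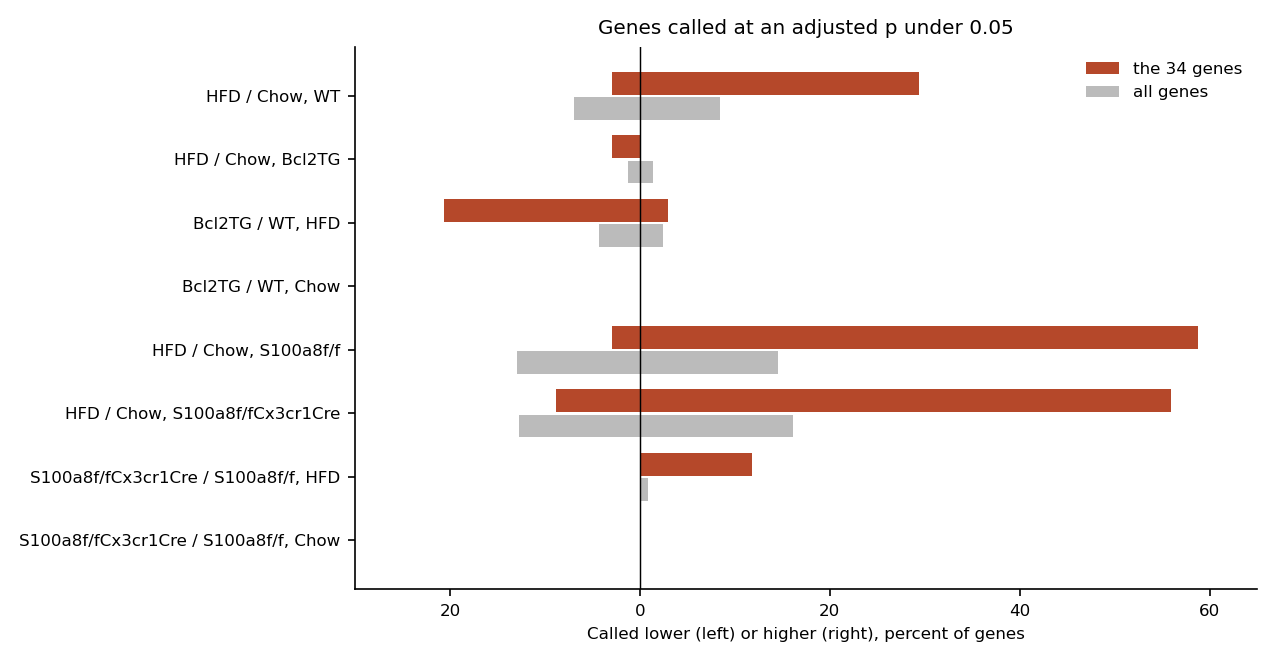
Percent of genes called lower (left of 0) or higher (right) at an adjusted p under 0.05 in each of 8 comparisons, for the 34 genes (red) and for all genes of the table (grey). The 34 genes were called higher with HFD in 29.4% (WT), 58.8% (S100a8f/f) and 55.9% (S100a8f/fCx3cr1Cre), and lower in HFD-fed Bcl2TG livers in 20.6%.

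The second experiment compared S100a8f/fCx3cr1Cre with S100a8f/f livers. On HFD 4 of the 34 genes were higher in S100a8f/fCx3cr1Cre livers (Timp2, Timp1, Adamtsl5 and Adam33) and none was lower by edgeR, with 0.854% of all genes called higher and 0.0289% lower (0.883% in either direction). DESeq2 called 5, all higher, limma-voom 6, and 8 genes had an unadjusted p under 0.05. The median log2 fold change was 0.05 over the group and 0.00 over all genes. Without HFD S100a8f/f replicate 2, 3 or 5 or any 1 of the HFD S100a8f/fCx3cr1Cre libraries 2 were called, Timp2 and Adamtsl5. The same livers differed in markers of other cell types. Smooth muscle and myofibroblast markers (Acta2, Tagln, Cnn1 and Myh11, of which 3 were measured and called higher) summed to 141 to 168 CPM in HFD-fed S100a8f/fCx3cr1Cre and 6.88 to 35.2 CPM in HFD-fed S100a8f/f livers, and adipocyte markers (3 of 5 measured, of which Adipoq and Plin1 were called higher) to 70.2 to 149 and 7.39 to 29.8 CPM. With the mean of adipocyte, mesothelial and smooth muscle markers as a covariate (3.43 to 3.87 against 1.16 to 1.96 log2 CPM) edgeR called none of the 34 genes and 0 of all 13817, 886 of which had an unadjusted p under 0.05. The log2 fold changes of Timp2, Adamtsl5, Adam33 and Timp1 were then 1.16, 1.78, 0.41 and 0.11 (adjusted p 0.526 to 0.986). Genotype and these marker levels cannot be told apart in these libraries.

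Timp2 was at 40, 41.5, 42.3 and 45.1 CPM in HFD-fed S100a8f/fCx3cr1Cre livers, all above the highest S100a8f/f liver at 26.4 CPM (log2 fold change 0.87, SE 0.10, adjusted p = 9.87e-05). The call remained without any 1 library (adjusted p up to 0.000917). Timp1 was at 5.33, 5.55, 5.76 and 6.50 CPM, again above all S100a8f/f livers, of which the highest was at 3.64 CPM (log2 fold change 1.26, SE 0.29, adjusted p = 0.0406). The Timp1 call was lost without any HFD library except S100a8f/f replicate 1, and without chow S100a8f/fCx3cr1Cre replicate 1 or 3 (adjusted p 0.0509 to 0.158). Timp3 was at 6.40, 6.41, 7.18 and 9.78 CPM. The groups did not overlap, but the difference was not called (log2 fold change 0.62, SE 0.31, adjusted p = 0.675). All 3 inhibitors were thus highest in the same 4 livers of the experiment. Between these HFD-fed groups 8 of the 34 genes did not overlap, against 4.44% of all genes. The same 4 livers had the higher smooth muscle and adipocyte markers. With the marker mean as a covariate the log2 fold changes of Timp2 and Timp1 were 1.16 and 0.11, and neither was called.

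Adamtsl5 and Adam33 were chosen for description after their values were seen, and neither was called with diet in S100a8f/f livers. Adamtsl5 encodes an ADAMTS-like protein of the matrix. It was at 1.12, 1.27, 1.39, 1.49 and 2.67 CPM in HFD-fed S100a8f/f and 3.59, 4.89, 5.38 and 5.59 CPM in HFD-fed S100a8f/fCx3cr1Cre livers (log2 fold change 1.61, SE 0.29, adjusted p = 0.00494), with no overlap, and its call remained without any 1 library. Adam33 encodes an ADAM that is known from smooth muscle and fibroblasts of the human airway. It was at 1.68, 1.74, 1.85, 2.05 and 2.46 CPM and 3.46, 3.59, 3.93 and 3.96 CPM (log2 fold change 0.93, SE 0.21, adjusted p = 0.0314), without overlap, but the call was lost without HFD S100a8f/f replicates 1, 2, 3 or 5 or any HFD S100a8f/fCx3cr1Cre library (adjusted p 0.06 to 0.117). In chow-fed S100a8f/f and S100a8f/fCx3cr1Cre livers Adamtsl5 was at 1.502 to 2.30 and 0.667 to 2.25 CPM, and Adam33 at 1.52 to 2.94 and 1.56 to 2.87 CPM.

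**Figure D5:**
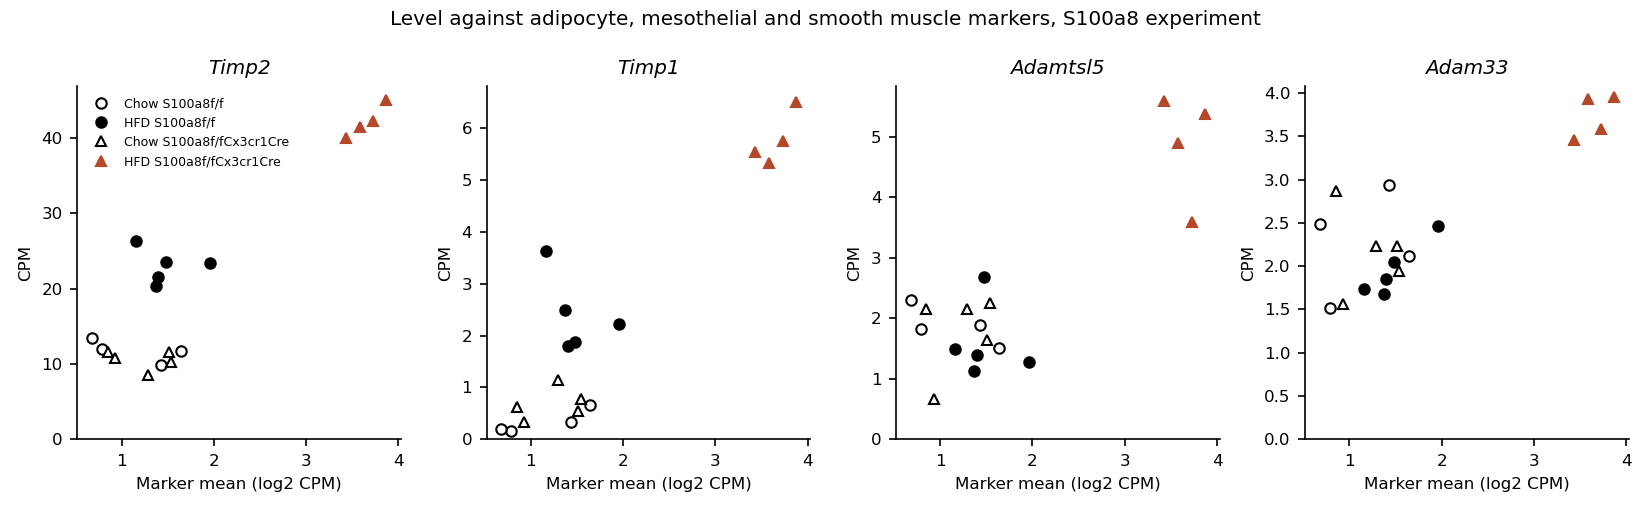
Level (CPM) of Timp2, Timp1, Adamtsl5 and Adam33 against the mean log2 CPM of adipocyte, mesothelial and smooth muscle markers in the 18 libraries of the S100a8 experiment, with circles for S100a8f/f and triangles for S100a8f/fCx3cr1Cre, open on chow and filled on HFD. The 4 HFD-fed S100a8f/fCx3cr1Cre libraries lie alone at a marker mean of 3.43 to 3.87, with all others at 0.68 to 1.96.

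The proteases that led the other comparisons were not called by edgeR between these genotypes on HFD, though DESeq2 called Mmp23, and limma-voom Mmp23 and Adam15. Mmp12 was at 6.48, 7.56, 8.68 and 9.17 CPM in HFD-fed S100a8f/fCx3cr1Cre livers (log2 fold change 0.42, SE 0.35, adjusted p = 0.891). Mmp2 was at 9.10, 9.82, 10.1 and 10.9 CPM and Mmp23 at 4.35, 4.93, 5.38 and 5.72 CPM, both above every HFD-fed S100a8f/f liver, with log2 fold changes of 0.61 and 0.72 that did not pass the test (adjusted p = 0.496 and 0.13). Adamts1 was at 11.1, 13.03, 14.3 and 17.7 CPM and Adamts2 at 12.2, 13.3, 14.02 and 16.2 CPM, and both overlapped with S100a8f/f livers (-0.01 and 0.32, adjusted p = 0.997 and 0.774). Adam15 was at 6.93 to 7.94 CPM in these livers, Adamts10 at 12.8 to 13.7 CPM, Adamts5 at 3.90 to 4.95 CPM, Adamtsl2 at 11.4 to 17.1 CPM and Adamtsl4 at 3.34 to 6.62 CPM. Adamts10 was above every HFD-fed S100a8f/f liver, and none of these 5 was called by edgeR (log2 fold change -0.13 to 0.43).

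On chow no gene of the group was called between S100a8f/fCx3cr1Cre and S100a8f/f livers by edgeR or DESeq2, and 2 had an unadjusted p under 0.05, where 0% of all genes were called by edgeR. In chow-fed S100a8f/fCx3cr1Cre livers Timp1 was at 0.334, 0.543, 0.614, 0.779 and 1.14 CPM, Timp2 at 8.57, 10.2, 10.8, 11.5 and 11.6 CPM and Timp3 at 1.30, 1.502, 2.20, 2.68 and 3.33 CPM, all overlapping with chow-fed S100a8f/f livers. Mmp12 was at 0.102 to 0.928 CPM there, Mmp2 at 0.445 to 2.46 CPM, Mmp23 at 0.779 to 1.74 CPM, Adamts1 at 4.29 to 7.50 CPM and Adamts2 at 2.28 to 4.29 CPM. Within S100a8f/fCx3cr1Cre livers 19 genes of the group were higher and 3 lower on HFD than on chow (16.1% and 12.8% of all genes), with a median log2 fold change of 1.13. The 3 lower genes were Adam11, Adamts7 and Mmp15 (-1.77, -1.05 and -0.60), and the Adamts7 call was lost without chow replicate 1 or 2 or any HFD replicate of that genotype (adjusted p 0.0512 to 0.109). With the marker mean as a covariate 2 of the 22 calls remained, Timp2 and Adam15. The median log2 fold change was then 1.44, and the calls lost among the higher genes ran from 0.19 (Adam33) to 2.64 (Mmp2). Mmp11 and Adamts15 were called in this diet comparison and in no other comparison (1.39 and 1.91, adjusted p = 0.00744 and 0.00173). With the clock covariate Adamts15 was at 1.09 (adjusted p = 0.205).

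The diet effect itself differed between S100a8f/f and S100a8f/fCx3cr1Cre livers for 1 gene of the 34, Timp2 (interaction 1.03, SE 0.15, adjusted p = 0.0151), with 0.130% of all genes called. Its log2 fold change with HFD was 0.97 in S100a8f/f and 2.005 in S100a8f/fCx3cr1Cre livers. Without HFD S100a8f/fCx3cr1Cre replicate 4 the adjusted p was 0.0551. With the marker mean or the clock score as a covariate it was 0.552 and 0.0575, with estimates of 1.31 and 1.05. The estimates for Adamtsl5 and Adam33 were 1.68 and 0.99 and did not pass the test (adjusted p = 0.184 and 0.352).

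Genes that act with these enzymes were counted from 5 lists, against 8.40% of all genes called higher and 6.98% lower with HFD in WT livers, 14.5% and 13.0% in S100a8f/f livers, and 2.42% and 4.29% between HFD-fed Bcl2TG and WT livers. Between HFD-fed S100a8f/fCx3cr1Cre and S100a8f/f livers 0.854% of all genes were called higher. Genotype and the levels of smooth muscle and adipocyte markers cannot be told apart there, which holds for Eln, Serpine2 and Sfrp1 below. Of the matrix proteins that MMPs and ADAMTS enzymes cut (collagens, elastin, proteoglycans and others), 13 of 18 measured were higher on HFD in WT and 16 of 19 in S100a8f/f livers, and none was lower. Without HFD WT replicate 1 it was 12 of 18 in WT livers, Eln being the gene lost. In HFD-fed Bcl2TG livers 13 of 18 were lower than in WT, with or without that library, and the median log2 fold change of the list was -1.07. Col1a1, a chain of type I collagen, had log2 fold changes of 2.69 and 3.05 with diet in WT and S100a8f/f livers and -2.58 in HFD-fed Bcl2TG against WT livers (adjusted p = 0.000168, 2.39e-06 and 0.000437). Eln, which encodes elastin, was the one matrix gene of the list that was higher in HFD-fed S100a8f/fCx3cr1Cre than in S100a8f/f livers (2.78, adjusted p = 0.00186). Col1a1 and Eln were chosen for description after their values were seen.

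In the plasminogen system, whose protease plasmin activates several pro-MMPs, 5 of 8 genes were higher and 2 lower on HFD in both WT and S100a8f/f livers. Plau and Plat, the urokinase and tissue activators of plasminogen, had log2 fold changes of 1.52 and 1.49 in WT and 1.60 and 1.90 in S100a8f/f livers. Serpine2, which encodes the inhibitor protease nexin 1, was lower on HFD (-2.67 and -2.17). In HFD-fed Bcl2TG livers 3 of the 8 were lower than in WT, among them Plat and Plau (-1.95 and -1.17), and 2 were higher, among them Serpine2 (1.43). Without HFD WT replicate 1 the Plat call with HFD in WT livers was lost (adjusted p = 0.0722), as was that of the second gene higher in Bcl2TG livers, Serpinf2. Serpine2 was also higher in HFD-fed S100a8f/fCx3cr1Cre than in S100a8f/f livers (1.41, adjusted p = 0.000434).

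Of 16 other regulators of metalloproteases that were measured, 3 were higher and 0 lower on HFD in WT livers, and 4 were higher and 2 lower in S100a8f/f livers, the lower ones being close to the share of all genes there. Pcolce, an enhancer of procollagen processing, had log2 fold changes of 0.67 and 1.54, and Rhbdf1, a partner of ADAM17, of 0.94 and 0.90. In HFD-fed Bcl2TG livers 2 of the 16 were lower than in WT, Pcolce among them (-0.61). Without HFD WT replicate 1 Sfrp1 was also called lower with HFD in WT livers, and Pcolce alone was lower in Bcl2TG livers. Sfrp1 was the one regulator higher in HFD-fed S100a8f/fCx3cr1Cre than in S100a8f/f livers (2.47, adjusted p = 0.00145).

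Among cathepsins and cystatins, lysosomal proteases and their inhibitors, 4 of 15 were higher on HFD in WT livers, and 4 of 14 were higher and 1 lower in S100a8f/f livers, where 14.5% and 13.0% of all genes were. Ctss, a cathepsin of macrophages, and Ctse were higher with HFD in WT livers (1.02 and 1.82) and lower in HFD-fed Bcl2TG than WT livers (-0.85 and -1.46). Of 17 substrates of ADAM sheddases, 5 were higher and 2 lower on HFD in WT livers, and 7 were higher and 3 lower in S100a8f/f livers (6.98% and 13.0% of all genes were lower). The macrophage receptor Trem2 was among the higher ones (2.44 and 2.27) and Egfr among the lower (-2.11 and -2.91). In HFD-fed Bcl2TG livers 4 of the 17 were lower than in WT, among them Trem2 and App, which encodes the amyloid precursor protein (-1.73 and -0.56). Without HFD WT replicate 1 there were 7 higher and 2 lower with HFD in WT livers, and 5 lower and 1 higher in Bcl2TG livers. The cathepsin counts and the counts of macrophage and stellate cell markers were the same without that library.

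The 8 genes measured in 1 table, described after their values were seen, all stood at group means under 2 CPM. In the Bcl2 table Mmp13, the collagenase of mice, was at 0.366, 0.683, 0.717, 1.07 and 1.94 CPM in HFD-fed WT and 0.0714, 0.0926, 0.133, 0.231 and 0.322 CPM in HFD-fed Bcl2TG livers (log2 fold change -2.49, SE 0.57, adjusted p = 0.015), without overlap, and the call remained without any 1 library. Mmp27 lies on chromosome 9 of GRCm38 (7571396 to 7581885), as do Mmp12 and Mmp13 (7272514 to 7283331). It was higher on HFD in WT and Bcl2TG livers alike (log2 fold change 1.69 and 3.06, adjusted p = 0.0179 and 0.00637), calls lost without chow WT replicate 1 or 2 and without chow Bcl2TG replicate 2. Adamts12 was higher on HFD in WT livers (2.39, adjusted p = 0.0471), a call lost without any library except chow WT replicate 3, chow Bcl2TG replicate 3, HFD WT replicate 2 and HFD Bcl2TG replicate 6. Mmp9, which encodes gelatinase B, was at 0.890 ± 0.351 CPM on chow (SD, n = 3) and 0.470 ± 0.0799 CPM on HFD (SD, n = 5) in WT livers and was not called in any comparison, and neither were Adam1a, Adam4 and Adam12. In the S100a8 table Adam8, a protease of leukocytes, was called in the diet comparison of S100a8f/fCx3cr1Cre livers (log2 fold change 1.56, SE 0.48, adjusted p = 0.0204), where the groups overlapped, and the call was lost without HFD replicate 1 of that genotype.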

How the data were processed

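Liver RNA of 34 mice was sequenced as poly(A) libraries, and the authors prepared the counts per gene with featureCounts from HISAT2 alignments (GRCm38) of reads trimmed in Trimmomatic. The deposited values are whole-number counts per gene, not normalized, in 1 table per experiment. Versions, annotation release and strand setting are not given in the sources used here. The tables also hold the authors' means and DESeq2 comparisons (fold changes, their errors, p-values, ranking scores), which were not used.

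Repeated entries of a gene held equal counts and were merged, leaving 14436 and 13817 genes. Counts were tested per experiment with edgeR 4.0.16 (quasi-likelihood, TMM, 1 mean per group, all 4 groups in 1 fit) in R 4.3.3, p-values were adjusted by Benjamini-Hochberg over all genes, and a call is an adjusted p under 0.05. CPM used TMM factors. On simulated counts for the HFD-fed Bcl2TG comparison (14436 genes) edgeR recovered 70% of genes changed by a log2 of 1 and 95% of those changed by 2. Of the simulated calls 4.6% were false with edgeR, 11.6% with DESeq2 and 4.1% with limma-voom. For S100a8f/fCx3cr1Cre against S100a8f/f on HFD these shares were 5.7%, 15.2% and 4.7%. The simulated counts used the spread that edgeR itself estimated, with equal means in all groups apart from the changed genes. They held no clock or marker differences between groups, so these shares do not give the error of the reported calls. Alternatives were DESeq2 1.42.0, limma-voom 3.58.1 with quality weights, RLE factors, no filter or CPM over 1, only the groups compared, a replicate block, marker and clock covariates, and each library left out. For the gene lists the fit without HFD WT replicate 1 was chosen after the data were seen. Deviations from the group means of the 3 same-numbered pairs of chow and HFD WT libraries correlated at 0.134, 0.136 and 0.15. Blocked values stand beside WT diet calls that the block ended. The labels give no pairing. Each chow library correlated more with a differently numbered HFD library (0.196, 0.427 and 0.199), so the data do not show one either. With 3 to 5 mice per group, p-values set a difference against the spread between mice, estimated over all 4 groups of an experiment. Positions and exon lengths are from GENCODE M21 (GRCm38).

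The genes and lists were chosen with earlier results of these data known. Per-library values are given for the TIMPs and the 14 genes with the smallest adjusted p over the 10 comparisons. For other lists up to 3 genes with the smallest adjusted p were named, except Col1a1 and Eln in the list of matrix proteins. Genes outside this rule are named as chosen after their values were seen.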

Additional observations from a re-analysis of the deposited data

Results flagged for a closer look

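Among 84 groups of 4 or 5 libraries, over the 14 genes given per library, 5 held a library far from the others, where chance gives about 5%. Mmp12 was at 0.213 CPM in HFD Bcl2TG replicate 1, with the others at 0.452 to 0.514 CPM. Mmp23 was at 0.509 CPM in HFD Bcl2TG replicate 5 (the others 1.31 to 1.56 CPM) and at 2.45 CPM in HFD S100a8f/f replicate 3 (the others 3.14 to 3.38 CPM). Adam15 was at 6.95 CPM in HFD S100a8f/f replicate 1, above the others at 4.87 to 5.31 CPM. Adamtsl2 was at 17.1 CPM in HFD S100a8f/fCx3cr1Cre replicate 3, above the others at 11.4 to 12.2 CPM.

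The response to HFD differed between genotypes for a pair of genes by the interaction test. Adamts2 responded less in Bcl2TG than in WT livers (interaction -1.08 on the log2 scale), and Timp2 responded more in S100a8f/fCx3cr1Cre than in S100a8f/f livers (1.03).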

How the results depend on the processing

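Across the 10 comparisons 69 calls were made, and none turned its direction under any alternative. DESeq2 and the stricter filter ended 0 of them, RLE factors 1, limma-voom 4, a fit of only the groups compared 6 of 67, the replicate block 14, the marker covariate 33 and the clock covariate 29. The fit with no filter could end none, since the filter on low counts removed 0 genes in each experiment. The counts of genes called between HFD-fed Bcl2TG and WT livers were 8 as reported, 5 with only the groups compared, 2 with the marker covariate, 2 with the clock covariate and 4 to 8 without 1 library. With HFD in WT livers they were 11, 0 with the clock covariate and 7 to 11 without 1 library, and with HFD in Bcl2TG livers 1, 4 with limma-voom and 0 with the clock covariate. The diet by Bcl2TG interaction count was 1 as reported, 2 with DESeq2, 2 with limma-voom, 0 with the clock covariate and 0 to 2 without 1 library. Between HFD-fed S100a8f/fCx3cr1Cre and S100a8f/f livers it was 4, 0 with the marker covariate and 2 to 4 without 1 library. With HFD in S100a8f/fCx3cr1Cre livers it was 22, 2 with the marker covariate and 15 with the clock covariate. The diet by S100a8 genotype interaction count was 1, 2 with DESeq2, 0 with the marker covariate, 0 with the clock covariate and 0 to 1 without 1 library. The interactions use all 4 groups, so they have no fit of only the groups compared. The cause of these shifts was not tested. Fitted changes of Timp1, Adamts9 and Adamts6 in WT livers were largest with the clock covariate (5.98, 2.34 and 2.51) or, for Timp1, without chow replicate 2 (8.27).

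Deviations of same-numbered libraries correlated at -0.48 to 0.287 in the Bcl2 and -0.357 to 0.193 in the S100a8 experiment, and only between chow and HFD WT libraries was each pair over 0.1. There each chow library correlated more with a differently numbered HFD library (0.196, 0.427 and 0.199). In every comparison the libraries are known to share only a number. With the replicate block 8 of the 11 WT diet calls remained. With the replicate number as a block the counts were 2 for Bcl2TG against WT on HFD, 0 for the Bcl2 interaction and 2 for S100a8f/fCx3cr1Cre against S100a8f/f on HFD, and no other count moved by over 1.5 times. Depth limits genes at low levels. Among them, Timp1 rested on 0 to 16 reads per library in HFD-fed Bcl2TG livers, and Mmp12 and Mmp13 also on few reads there.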
